A study of Mus musculus with 6 samples.

Results

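The resting cornea was described from RNA sequencing of 2 unwounded libraries, replicate 1 and replicate 2, of a series of 6 samples in 3 groups. The mice were C57BL/6, wild type and 6 weeks old, and total RNA was taken from the removed corneas. The labels give no sex and do not say whether the samples were separate animals or pools. The other groups of the series were wounded and are not used here. The deposited values are TPM, each gene's share of its library after correction for length, and a gene was taken as expressed where it had at least 1 TPM in both libraries. Of 54446 gene rows 13533, or 24.9%, met this rule. These genes held 99.68% of the summed TPM of replicate 1 and 99.5% of that of replicate 2. With 1 library against 1 library there is no replicate check on a difference between them, so differences are given by size with no p-value. TPM keeps no read depth, so the depth behind a value is unknown.

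The cornea is the clear front window of the eye. A stratified epithelium renews itself from the limbus at its rim and covers a stroma of ordered collagen fibrils that is kept by keratocytes, and a single layer of endothelium on the inner face pumps water out of the stroma. Corneal cells are also known for storing very large amounts of a few cytosolic enzymes, called corneal crystallins, among them the aldehyde dehydrogenase Aldh3a1 and the transketolase Tkt. In a bulk sample, fewer cells of a type and less RNA per cell cannot be told apart.

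Markers of all 3 layers were present, and both libraries also carried RNA of tissue that is not cornea. The 35 rod photoreceptor genes listed together had 1053.19 TPM in replicate 1 and 7629.77 TPM in replicate 2. The 4 adult globin genes together had 2383.52 TPM in replicate 1 and 6786.73 TPM in replicate 2, while the 15 skeletal muscle markers together had 212.56 TPM in replicate 1 and 14.78 TPM in replicate 2. Xist, the noncoding RNA made from the inactive X chromosome of female cells, had 39.56 TPM in replicate 1 and was listed at 0 in replicate 2. The Y-linked genes Eif2s3y, Ddx3y, Kdm5d and Uty were listed at 0 in replicate 1 and had 54.94, 26.01, 9.62 and 8.56 TPM in replicate 2. Retinal RNA, blood RNA, muscle RNA and sex-linked genes therefore all separate the 2 libraries, and their parts in any other difference between these libraries cannot be told apart.

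A small number of genes held much of the RNA. The 10 most abundant genes held 15.53% ± 0.41 of the library (SD, n = 2), the 100 most abundant 42.55% ± 0.69 and the 1000 most abundant 71.6% ± 1.1. Each library reached 50% of its sum with few genes, 160 in replicate 1 and 175 in replicate 2, and 90% with 4036 and 4459 genes. By mean level, 140 genes stood at 1000 TPM or more, 1085 between 100 and 1000 TPM, 7081 between 10 and 100 TPM, 2316 between 5 and 10 TPM, 2072 between 2 and 5 TPM and 839 below 2 TPM. The median expressed gene had 14.81 TPM. Protein-coding genes made up 12703 of the 13533 genes and 94.98% and 93.96% of the summed TPM of replicates 1 and 2. At the threshold, Dnmt3l (1.47 TPM in replicate 1 and 1.0 TPM in replicate 2) and Nalcn (1.0 and 1.74 TPM) were just inside, and Arhgap8 (1.91 and 0.99 TPM) and Pcdhga3 (0.99 and 1.91 TPM) just outside.

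Of the 30 most abundant genes, 15 were neither mitochondrial nor ribosomal, and most of these are genes of the epithelium. Gsto1, a glutathione transferase of the omega class (ENSMUSG00000025068, chromosome 19, 47854970 to 47864790, plus strand, GRCm38), had 29925.27 TPM in replicate 1 and 25714.21 TPM in replicate 2, 2.99% and 2.57% of the library. Krt12, the keratin specific to corneal epithelium (ENSMUSG00000020912, chromosome 11, 99415666 to 99422259, minus strand), had 19636.33 and 18778.16 TPM. Its partner Krt5, the type II keratin of basal epithelial cells (ENSMUSG00000061527, chromosome 15, 101707070 to 101712898, minus strand), had 9296.84 and 8824.23 TPM. Krt12 thus stood above its partner in both libraries. Aldh3a1 (ENSMUSG00000019102, chromosome 11, 61207537 to 61218421, plus strand), which clears aldehydes formed under ultraviolet light, had 10130.49 and 9582.94 TPM. Tmsb4x, thymosin beta 4, which binds monomeric actin, had 15216.58 and 12444.59 TPM. These levels differed between the libraries far less than they differed from the median gene.

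Secreted and surface proteins of the outer epithelium filled several of the next places. Lypd2, a small protein of the Ly6 family, had 10044.81 TPM in replicate 1 and 8538.73 TPM in replicate 2. Psca, another member of that family, had 4482.74 and 3555.1 TPM, and Upk3bl, of the uroplakin family, 4122.22 and 3548.77 TPM. Asprv1, an aspartic protease that acts on filaggrin in skin, had 7969.39 and 6728.44 TPM, although Flg, the filaggrin gene, was listed at 0 and 0.06 TPM. Calml3, a calmodulin-like protein of epithelia, stood at 5052.25 and 4843.63 TPM, the membrane protein gene Emp1 at 5930.47 and 6068.2 TPM, and the glutathione transferase Gsta4, which acts on products of lipid peroxidation, at 4471.26 and 3915.48 TPM. The calcium-binding S100a6 and S100a11 had 6174.6 and 5462.73 TPM and 4760.08 and 4285.8 TPM. Of these 15 genes 14 were higher in replicate 1. Emp1 was the exception, with a log2 difference of -0.03 that turned to 0.07 under median-of-ratios scaling. The libraries shared 9 of their 10, 28 of their 30 and 93 of their 100 most abundant genes.

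**Figure D1:**
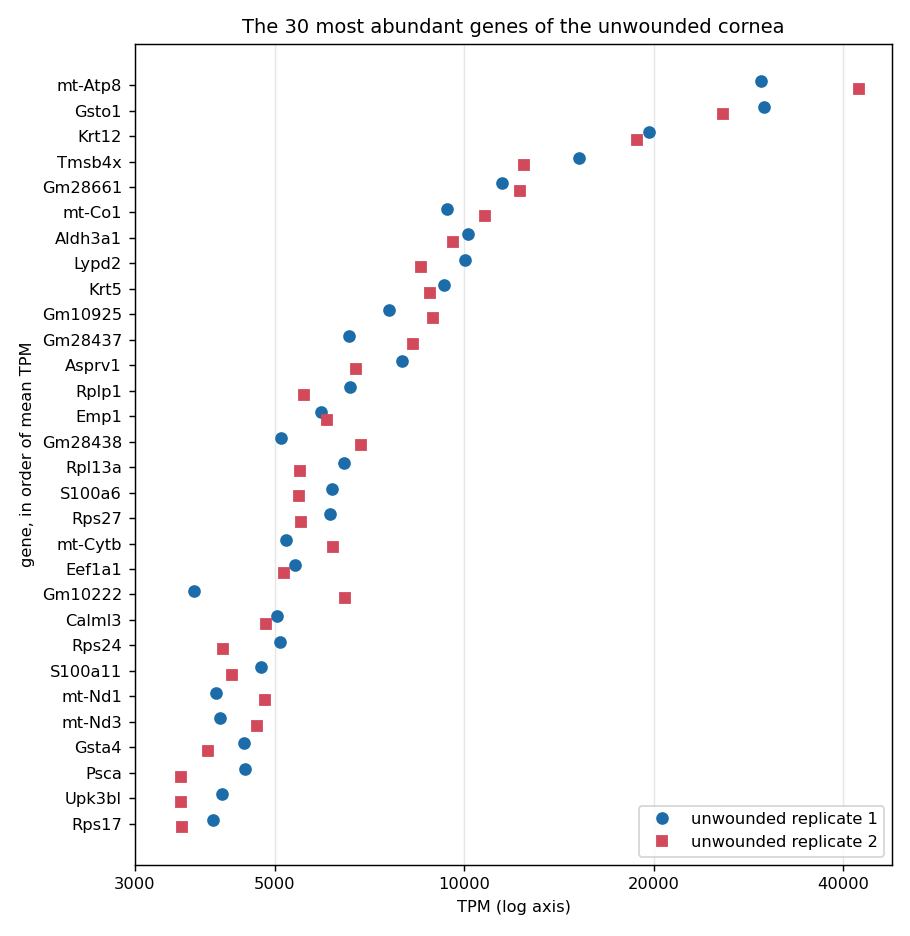
TPM of the 30 genes of highest mean level, on a log axis, in unwounded replicate 1 (circles) and unwounded replicate 2 (squares), with no error bars because each point is a single library. The mitochondrial genes and the Gm pseudogenes lie further right in replicate 2, and the ribosomal protein genes further right in replicate 1. For Gm28661 that order turns under median-of-ratios scaling.

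The stretches before the starts of Krt12, Krt5 and Gsto1 are shown as the control regions of the abundant epithelial genes, in RefSeq sequence of GRCm38.p6. Each line gives the 150 bases upstream of the annotated start, 5′ to 3′ on the strand of the gene, with the letters TATAAA, the core of the TATA box, in capitals where they occur. The Krt12 line is chr11:99422260-99422409 on the minus strand, the Krt5 line chr15:101712906-101713055 on the minus strand and the Gsto1 line chr19:47854823-47854972 on the plus strand.
Krt12: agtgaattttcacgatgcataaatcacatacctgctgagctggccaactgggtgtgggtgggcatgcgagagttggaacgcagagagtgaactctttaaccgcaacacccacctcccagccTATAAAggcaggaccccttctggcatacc
Krt5: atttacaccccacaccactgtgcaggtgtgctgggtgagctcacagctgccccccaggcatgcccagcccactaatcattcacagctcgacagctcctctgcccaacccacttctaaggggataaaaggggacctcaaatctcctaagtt
Gsto1: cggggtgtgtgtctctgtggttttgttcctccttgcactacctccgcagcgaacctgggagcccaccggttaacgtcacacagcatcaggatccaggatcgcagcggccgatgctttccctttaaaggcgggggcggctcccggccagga
The match in Krt12 begins 29 bases before the start, and Krt5 and Gsto1 have no match to these letters in the window. On the strand of the gene, TATAAA was found within the 60 bases before the start in 3 of 14 promoter windows of expressed keratin genes (21.4%), 4 of 86 windows of the 100 most abundant nuclear protein-coding genes (4.65%), 0 of 67 windows of ribosomal protein genes and 944 of all 32851 windows (2.87%). Of the genes in these groups, 13 of 23 keratins, 72 of the 100 most abundant and 57 of 78 ribosomal protein genes had a window.

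The protein synthesis machinery held the largest share of any group examined. The 78 cytosolic ribosomal protein genes, all expressed, summed to 15.7% of replicate 1 and 13.88% of replicate 2, and 75 of the 78 were higher in replicate 1. Their differences were small, with a median of 0.16 on the log2(TPM + 1) scale, replicate 1 minus replicate 2, against a median of -0.07 over all 13533 genes. Rplp1, of the ribosomal stalk, had 6598.21 TPM in replicate 1 and 5571.07 TPM in replicate 2, and Rpl13a 6456.89 and 5485.77 TPM. Eef1a1, the elongation factor that brings aminoacyl-tRNA to the ribosome, had 5394.61 and 5173.66 TPM. Its neuronal and muscle paralogue Eef1a2 had 2.23 and 16.45 TPM. Many processed copies of ribosomal protein genes exist in the mouse genome, so the split of their reads is uncertain.

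Mitochondrially encoded genes came next. The 13 protein genes of the mitochondrial genome summed to 6.55% of replicate 1 and 8.28% of replicate 2, and 11 of them were higher in replicate 2. The ATP synthase subunit gene mt-Atp8 was listed at 29623.22 and 42264.64 TPM. It is 204 bases long and shares 43 bases with mt-Atp6, which was listed at 806.46 and 550.47 TPM, so the level of this short gene depends on how reads were assigned. Another 3.47% of replicate 1 and 4.29% of replicate 2 was assigned to 7 pseudogenes on chromosome 1, which lie together between 24611535 and 24616197. Their transcripts match mitochondrial genes at 99.71% to 100% identity in the GENCODE transcripts. Gm28661, identical to mt-Co2 over 681 bases, was listed at 11500.26 and 12281.89 TPM, above mt-Co2 itself at 1054.03 and 1271.19 TPM. For such pairs only the sum can be read.

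The sums stand apart from the single genes. As single genes mt-Atp6 and mt-Co3 were the 2 of 13 that were higher in replicate 1. Without its copy mt-Co3 had 2853.08 TPM in replicate 1 and 1705.74 TPM in replicate 2. Together with Gm28437, identical over 783 bases, it had 9423.47 TPM in replicate 1 and 10007.8 TPM in replicate 2, a log2 difference of -0.09 that was 0.02 under median-of-ratios scaling. Likewise mt-Atp6 with Gm10925 had 8416.24 and 9480.51 TPM, lower in replicate 1 by either scaling. Mitochondrial proteins and these copies together held 10.01% of replicate 1 and 12.56% of replicate 2.

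**Figure D2:**
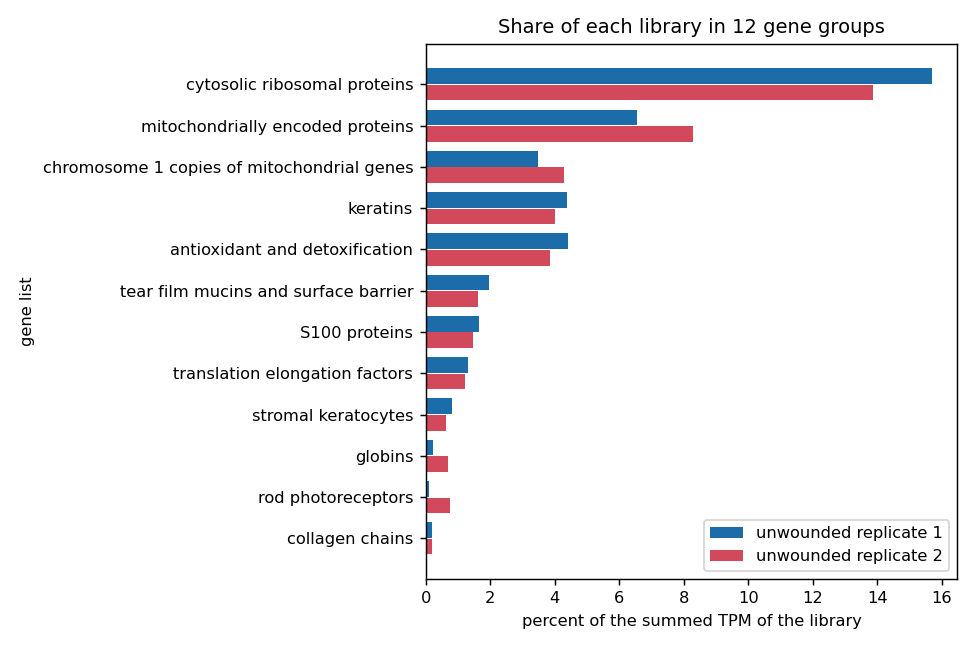
Percent of the summed TPM of each library in 12 gene groups, for unwounded replicate 1 (upper bar of each pair) and unwounded replicate 2 (lower bar), 1 library per bar and therefore no error bars. Ribosomal protein genes hold 15.7% and 13.88%, and rod photoreceptor genes 0.105% and 0.763%.

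The epithelium was the layer with the highest marker levels. All 18 markers of the differentiated corneal epithelium were expressed, and they summed to 3.92% of replicate 1 and 3.69% of replicate 2. Krt12 and Aldh3a1 led this list. Tkt, of the pentose phosphate pathway, had 2417.83 TPM in replicate 1 and 2456.98 TPM in replicate 2, and Slurp1, a secreted protein that restrains inflammation at the ocular surface, 2297.24 and 1592.21 TPM. Upk1b, a uroplakin, had 833.79 and 835.47 TPM. No marker of this list was at least 2-fold apart between the libraries on the TPM + 1 scale, where the share of all expressed genes was 3.65%. Between 100 and 1000 TPM, where the list median of 330.9 TPM lay, that share was 0.276% toward replicate 1 and 1.2% toward replicate 2. Among 18 genes such shares can also give none, so the count does not set this list apart. The largest differences were those of Tmprss11d, a serine protease, at 0.62 on the log2(TPM + 1) scale, and Slurp1 at 0.53, both higher in replicate 1.

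Basal and limbal markers were expressed in 11 of 12 cases. After Krt5 came Krt15, a keratin of basal and progenitor cells, with 4003.1 TPM in replicate 1 and 3455.35 TPM in replicate 2. Krt14, the basal type I keratin, was far lower, at 539.6 and 424.53 TPM. Col17a1, a transmembrane collagen of hemidesmosomes, had 383.23 and 382.25 TPM, and Gpha2, a glycoprotein hormone subunit known from limbal stem cells, 343.68 and 287.57 TPM. Trp63, the p63 transcription factor of stratified epithelia, had 85.43 and 79.25 TPM. Lgr6 was the member below threshold, at 0.21 and 0.12 TPM.

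Among 53 keratin genes matched, 23 were expressed and 14 were listed at 0 in both libraries. The order by mean level was Krt12, Krt5, Krt15, Krt6b, Krt6a, Krt13 and Krt14. Krt6b had 3427.31 TPM in replicate 1 and 2824.43 TPM in replicate 2, and its near-identical copy Krt6a 3144.09 and 2696.53 TPM, so the split of reads between these similar genes is uncertain. The keratins of cornified skin, Krt1 and Krt10, stood at 3.42 and 3.62 TPM and at 6.8 and 4.47 TPM. Of 20 genes in the cornified envelope list, which also held keratins named above, 11 were expressed. Krt6b by itself made up 50.24% of the list sum in replicate 1 and 49.57% in replicate 2. Lce3a, a late cornified envelope gene, had 133.61 TPM in replicate 1 and 60.72 TPM in replicate 2, and Tgm1, the transglutaminase that crosslinks the envelope, 31.33 and 40.92 TPM.

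Desmosome and mucin genes gave the following levels. Perp, a desmosomal membrane protein, had 1988.17 TPM in replicate 1 and 1797.85 TPM in replicate 2. The desmosome genes Jup, Dsp, Dsc2 and Dsc3 had 440.36 and 439.23, 324.89 and 305.61, 292.01 and 298.84, and 289.86 and 273.61 TPM. All 16 junction genes listed were expressed. Among mucins Muc4 stood highest, at 423.58 and 394.32 TPM, then Muc20 at 138.7 and 132.05 TPM and Muc1 at 49.57 and 39.35 TPM. Muc16 was listed at 0 in both libraries. Lgals3, the galectin that binds surface mucins, had 874.5 and 855.53 TPM.

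Transcription factors known from the cornea were mostly expressed. Of 21 listed 18 passed 1 TPM, with a median of 32.85 TPM. Elf3, an epithelial ETS factor, had 502.45 TPM in replicate 1 and 512.53 TPM in replicate 2. Pax6, the master regulator of eye development, had 340.29 and 361.3 TPM, Klf4 319.59 and 302.39 TPM and Ehf 203.75 and 181.11 TPM. Pax6 is also made in retina and lens. Foxc1, a factor of the neural crest cells that form stroma and endothelium, had 16.56 and 16.6 TPM. Sox2 (0.56 and 1.56 TPM), Foxc2 (0.99 and 0.71 TPM) and Gata3 (0.02 and 0 TPM) did not pass.

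Enzymes against oxidation were all expressed, 26 of 26, and summed to 4.42% of replicate 1 and 3.84% of replicate 2. Gsto1 held most of that sum. After Gsta4 and the ferritin heavy chain gene Fth1, with 3926.99 TPM in replicate 1 and 3348.4 TPM in replicate 2, came Prdx5, a peroxiredoxin, with 779.32 and 663.37 TPM. Gpx4, the peroxidase for membrane lipids, had 605.39 and 643.56 TPM, while catalase, Cat, had 24.25 and 24.16 TPM. Aldh1a1, a crystallin enzyme in the corneas of other mammals, stood at 160.03 and 129.28 TPM, far below Aldh3a1.

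Water channels and ion pumps known from different layers were expressed. Aqp5, the water channel of the corneal epithelium, had 3806.65 TPM in replicate 1 and 3181.42 TPM in replicate 2, and Aqp3, which also carries glycerol, 1155.96 and 1088.88 TPM. Aqp1, of keratocytes and endothelium, had 328.47 and 302.91 TPM. The sodium pump subunit Atp1b3 stood at 401.87 and 389.75 TPM. Car2, carbonic anhydrase 2, was the list member with the largest gap, at 8.36 TPM in replicate 1 and 65.96 TPM in replicate 2, and it is also a gene of retinal glia and neurons.

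Of the 18 stromal keratocyte markers 17 were expressed, with sums of 0.803% of replicate 1 and 0.636% of replicate 2. Ptgds, prostaglandin D synthase, led with 2750.71 TPM in replicate 1 and 2825.32 TPM in replicate 2. Dcn, the proteoglycan decorin that spaces collagen fibrils, had 2690.07 and 1467.49 TPM, Lum 543.88 and 327.29 TPM, and Kera, keratocan, 366.96 and 303.69 TPM. Collagen mRNA was moderate beside this, with Col1a2 at 316.1 and 308.77 TPM and Col1a1 at 257.17 and 219.99 TPM. The 44 collagen genes matched summed to 0.185% of each library, 35 of them expressed, and the most abundant was the epithelial Col17a1. Chst4 was listed at 0 in both libraries.

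The endothelium was present at lower levels. All 14 endothelial markers were expressed, with sums of 1140.4 TPM in replicate 1 and 1273 TPM in replicate 2, but several are also made by epithelium. Car3 by itself held 35.43% of the sum in replicate 1 and 34.64% in replicate 2. Col8a2, a chain of the collagen of Descemet's membrane, had 181.5 and 165.06 TPM, Col8a1 33.31 and 37.55 TPM, and Slc4a11, a transporter mutated in endothelial dystrophies, 71.3 and 72.14 TPM. Slc4a4, the sodium bicarbonate cotransporter, had 18.65 and 21.61 TPM. Of these 14 genes 1, Car2, was past 2-fold, higher in replicate 2 as were 3.04% of all genes.

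**Figure D3:**
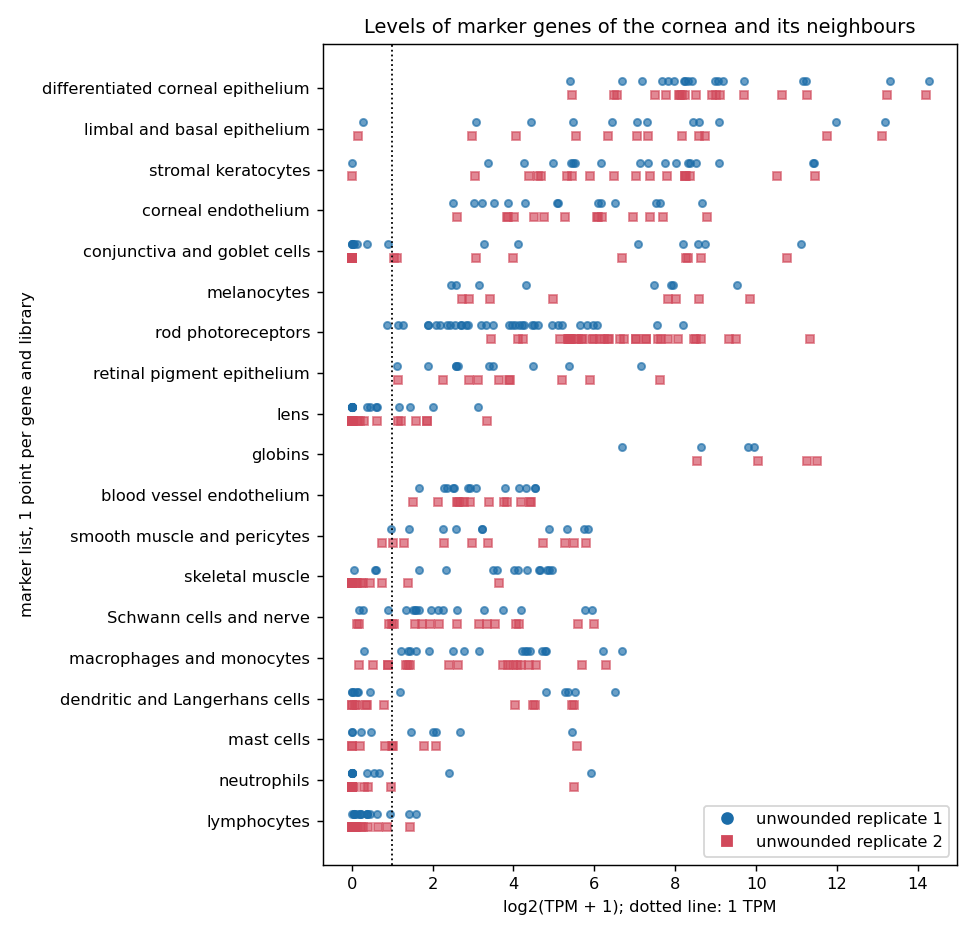
Level of each marker gene as log2(TPM + 1), in unwounded replicate 1 (circles) and unwounded replicate 2 (squares), 1 point per gene and library, with a dotted line at 1 TPM. Epithelial markers reach furthest right, rod markers are shifted right in replicate 2, skeletal muscle markers in replicate 1, and all but 1 each of the lymphocyte and neutrophil markers fall short of the line in at least 1 library.

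Neighbouring tissue was represented unevenly. Conjunctival keratins were high, Krt13 at 2190.52 TPM in replicate 1 and 1731.05 TPM in replicate 2 and Krt4 at 377.76 and 319.31 TPM, and such keratins are also known from limbal epithelium. The goblet cell mucin gene Muc5ac had 0.02 and 0.01 TPM, and Tff2 and Bpifa1 were listed at 0 in both libraries. Of 17 lens genes 4 were expressed, led by Bfsp2 at 7.71 and 9.19 TPM, with Cryaa at 0.37 and 1.32 TPM. All 8 melanocyte genes were expressed, among them Dct, of melanin synthesis, at 733.03 and 913.02 TPM and Mlana at 246.79 and 256.18 TPM. Smooth muscle, vessel and Schwann cell markers were low, with Acta2 at 56.79 and 54.47 TPM, Egfl7 at 22.29 and 20.53 TPM, Pecam1 at 7.45 and 6.58 TPM and Mbp at 60.02 and 62.12 TPM. For lymphatic vessels Lyve1 had 3.97 and 4.03 TPM. Of 12 adipocyte and gland markers none reached 1 TPM in both libraries. Of 10 genes of sensory nerves and their targets 5 were expressed, led by the neurotrophin receptor Ngfr at 17.35 and 15.66 TPM and the mechanosensitive channel Piezo2 at 10.32 and 10.56 TPM. The cold receptor Trpm8 was listed at 0 in both libraries and Calca at 0 and 0.1 TPM.

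Resident immune cells were seen as low levels of macrophage genes. Of 18 macrophage and monocyte markers 14 were expressed, with Lyz2, lysozyme, at 101.56 TPM in replicate 1 and 51.05 TPM in replicate 2, C1qa at 25.3 and 20.05 TPM and Csf1r, the receptor for colony-stimulating factor 1, at 7.83 and 5.24 TPM. Among markers of antigen-presenting cells Cd74, the invariant chain, had 90.42 and 42.93 TPM, while the Langerhans cell gene Cd207 stood at 0 and 0.06 TPM. Of 12 neutrophil genes only S100a9 passed, at 59.87 and 43.85 TPM, and the defining genes Ly6g, Mpo, Elane and Retnlg were listed at 0 in both libraries. S100a9 is also made by epithelial cells. Of 16 lymphocyte genes only Cd79b passed, at 1.68 and 1.74 TPM. For mast cells Cma1, the chymase, had 3.24 and 2.43 TPM.

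The unwounded tissue carried few transcripts of inflammation. Il6 was listed at 0 in both libraries, Il1b had 0.74 and 0.58 TPM and Ccl2 0.98 and 0.93 TPM. Cytokines that epithelia store in the resting state stood higher, Il18 at 162.62 and 127.78 TPM, Il1a at 37.05 and 38.18 TPM and Il33 at 19.68 and 16.57 TPM, beside the receptor antagonist Il1rn at 54.44 and 50.49 TPM. In the list, 10 of 21 genes were expressed. Interferon-stimulated genes were expressed in 23 of 27 cases at a median of 16.14 TPM, with Ifi27 at 162.61 and 150.27 TPM, Ifitm3 at 157.43 and 158.9 TPM, and Oasl2 at 101.52 and 85.48 TPM. Of innate defence genes Defb1, a beta defensin, had 341.16 and 304.37 TPM.

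Factors that oppose vessel growth were present, as the cornea is known for lacking vessels. Sparc, a matricellular protein, had 892.79 TPM in replicate 1 and 980.67 TPM in replicate 2, and Serpinf1, pigment epithelium-derived factor, 507.11 and 285.86 TPM. Timp3, an inhibitor of metalloproteinases, had 113.17 and 109.87 TPM and Flt1, whose soluble form binds VEGF, 4.09 and 5.22 TPM. Vegfa itself stood at 17.15 and 32.77 TPM.

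Genes of the cell cycle, the early response, the clock and heat shock were mostly expressed. All 24 cell cycle genes were expressed, led by Cdk1 at 92.76 TPM in replicate 1 and 96.48 TPM in replicate 2 and Ube2c at 95.57 and 90.85 TPM. None was past 2-fold, where the share of all genes was 3.65%. Among 24 genes that share can also give none, so the count does not set them apart. Of 20 immediate early genes 17 were expressed. Junb had 246.55 and 247.93 TPM, Fos 23.84 and 30.3 TPM and Egr1 5.01 and 8.42 TPM. All 18 clock genes were expressed. Hlf, an output gene of the clock, had 102.02 and 120.49 TPM, Dbp 39.34 and 27.75 TPM, Arntl 23.65 and 31.62 TPM and Per2 1.7 and 1.79 TPM. Of 16 heat shock genes all were expressed, with the small heat shock protein gene Hspb1 at 1195.69 and 987.77 TPM.

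Between the 2 libraries most genes differed little. On the log2(TPM + 1) scale 65.6% of the 13533 genes lay within 1.2-fold of each other, and the SD of the differences was 0.44. Pearson's r across these genes was 0.973, a description over genes that share their libraries. At least 2-fold apart on the TPM + 1 scale were 494 genes, 3.65% of those compared. Of these, 83 (0.613%) were higher in replicate 1 and 411 (3.04%) in replicate 2. At 4-fold the numbers were 3 and 126. The share past 2-fold toward replicate 1 and toward replicate 2 was 0.95% and 5.4% between 5 and 10 TPM, 0.466% and 2.22% between 10 and 100 TPM, and 0.276% and 1.2% between 100 and 1000 TPM. At 1000 TPM or more it was 0% and 2.86%, or 0 and 4 of 140 genes, so it did not fall steadily with level. Below a mean of 2 TPM no gene can pass under this rule. Outside the rule, 480 genes reached 1 TPM in replicate 1 only and 1096 in replicate 2 only.

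**Figure D4:**
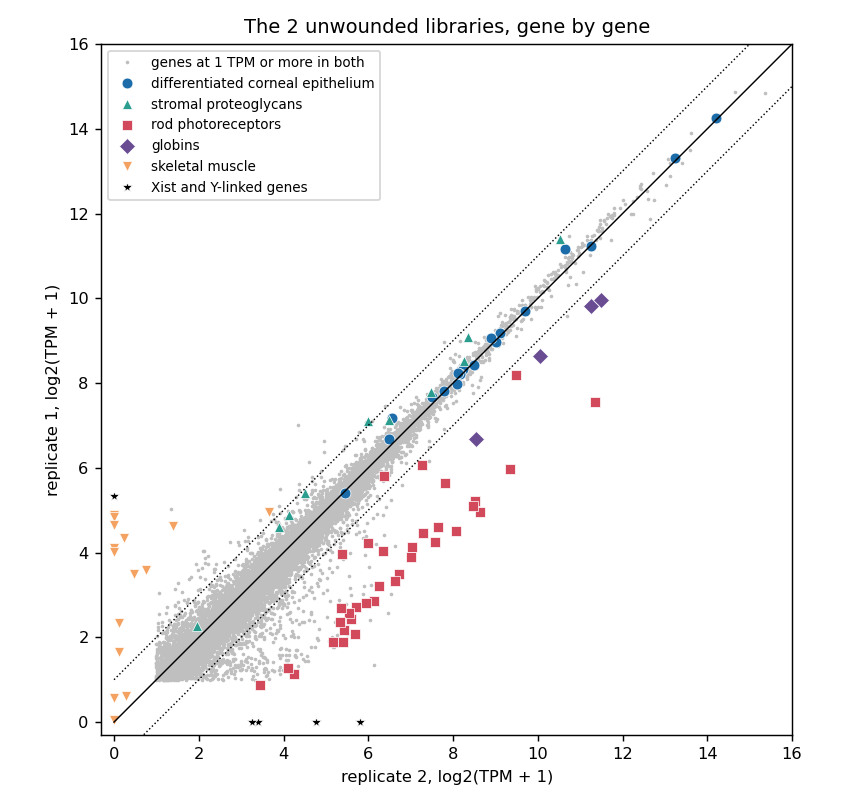
Each gene's log2(TPM + 1) in unwounded replicate 1 (vertical axis) and unwounded replicate 2 (horizontal axis), with a solid line at equality and dotted lines at 2-fold. Corneal epithelial markers lie within the 2-fold lines, rod and globin genes below it, and skeletal muscle genes and Xist above it.

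Among genes expressed in both libraries, those of photoreceptors and synapses had large differences toward replicate 2. All of the 34 rod genes expressed in both libraries were higher in replicate 2, 33 of them at least 2-fold, beside the 3.04% of all genes. Their median log2 difference was -3.11, against -0.07 over all genes. Pdc, phosducin, a regulator of transducin, had 30.05 TPM in replicate 1 and 394.57 TPM in replicate 2. Gnat1, the rod transducin alpha subunit, had 61.66 and 647 TPM, Sag, rod arrestin, 35.91 and 365.4 TPM, and Pde6g, of the rod phosphodiesterase, 33.13 and 352.35 TPM. Prph2, which shapes the outer segment discs, had 21.74 and 265.65 TPM, and Nrl, the transcription factor of rod fate, 18.08 and 190.31 TPM. Prom1, which epithelia also express, was the member within 2-fold, at 55.39 and 81.56 TPM. The rod list was drawn up after the difference was seen, so its counts describe the libraries and are no test.

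Many rod genes hold the same short run of letters near their starts. Crx, the homeodomain factor of photoreceptors, is known to bind sites with the core TAATC. In RefSeq promoter windows of 300 bases, 250 before and 50 after the start, TAATC on either strand was found in 18 of 29 windows of rod genes (62.1%), against 7228 of 32851 windows in all (22%). It was found in 9 of 67 windows of ribosomal protein genes (13.4%), 18 of 86 windows of the 100 most abundant genes (20.9%), 3 of 10 windows of differentiated epithelium genes (30%) and 6 of 14 windows of keratin genes (42.9%). Windows were held for 25 of the 34 rod genes, so some genes have more than 1 window. The 150 bases before the starts of Prph2, Pde6b and Sag are shown with TAATC or its reverse complement GATTA in capitals. They are RefSeq sequence of GRCm38.p6, at chr17:46910328-46910477, chr5:108388223-108388372 and chr1:87803530-87803679, all on the plus strand.
Prph2: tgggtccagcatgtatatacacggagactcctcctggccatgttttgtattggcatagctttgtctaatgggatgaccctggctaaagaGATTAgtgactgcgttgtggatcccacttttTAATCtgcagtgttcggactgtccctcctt
Pde6b: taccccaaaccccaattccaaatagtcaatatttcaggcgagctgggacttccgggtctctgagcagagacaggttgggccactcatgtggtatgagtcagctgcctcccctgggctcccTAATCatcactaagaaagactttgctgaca
Sag: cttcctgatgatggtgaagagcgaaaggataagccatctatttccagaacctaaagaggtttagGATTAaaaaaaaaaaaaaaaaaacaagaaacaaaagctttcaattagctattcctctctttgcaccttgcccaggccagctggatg
A match begins 30 bases before the start in both Prph2 and Pde6b, Prph2 has another at 61 bases, and the match in Sag begins 86 bases before the start. The match is a description of letters and was not tested as a site. Crx itself had 4.42 TPM in replicate 1 and 47.26 TPM in replicate 2.

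Other retinal cells followed the rods to differing extents. Opn1sw, the short-wavelength cone opsin, had the largest difference of any expressed gene with a standard name, 1.53 TPM in replicate 1 and 68.94 TPM in replicate 2, a log2 difference of -4.79. The other cone opsin, Opn1mw, had 1.23 and 2.53 TPM. The vesicle genes Snap25 and Syp had 4.95 and 87.29 TPM and 4.27 and 64.56 TPM, and the vesicular glutamate transporter Slc17a7 7.12 and 91.9 TPM. All 12 expressed genes of vesicle release were past 2-fold toward replicate 2, beside 3.04% of all genes. Of 16 inner neuron genes 6 were expressed, with a median log2 difference of -0.95 and 2 past 2-fold, beside 3.04% of all genes. Their differences ran from -3.41 to -0.45. Trpm1, the most abundant, held 58.38% of the list sum in replicate 1 and 35.07% in replicate 2. Which cells of the sample its RNA came from was not tested. Pcp2, of rod bipolar cells, had 3.25 and 44.2 TPM, while Gad1 and Calb2, of amacrine cells, had 0.48 and 22.92 TPM and 0.7 and 21.52 TPM and so missed the rule. Of 7 Müller glia genes 6 were expressed, and Rlbp1, the retinal binding protein, had 37.06 and 91.12 TPM. Glul, glutamine synthetase, which many tissues express, had 554.89 and 716.37 TPM.

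Pigmented tissue differed much less. For the retinal pigment epithelium the median log2 difference of 10 expressed genes was -0.47, with 1 gene past 2-fold, Rpe65, the visual cycle isomerase, at 5.23 TPM in replicate 1 and 11.56 TPM in replicate 2. Under median-of-ratios scaling none of the 10 was past it. For melanocytes the median of 8 genes was -0.32 and none was past 2-fold. Tyrp1, of melanin synthesis, had 177.27 and 226.12 TPM. The medians of rod, pigment epithelium and melanocyte genes thus stand at -3.11, -0.47 and -0.32.

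Genes of glycolysis and lactate transport were all higher in replicate 2, 20 of 20 expressed. Their median log2 difference was -0.47, against -0.07 over all genes. Of the 20, 5 were past 2-fold, beside 3.04% of all genes in that direction. The 5 were Hk1, hexokinase 1, at 24.76 TPM in replicate 1 and 61.61 TPM in replicate 2, Eno2, the neuronal enolase, at 13.32 and 41.33 TPM, Hk2 at 4.31 and 11.04 TPM, and the lactate transporters Slc16a1 and Slc16a3 at 7.6 and 17.38 TPM and 1.73 and 6 TPM. Gapdh, the most abundant, had 892.54 and 1086.13 TPM. Photoreceptors are known for high glycolysis, and the rod genes moved with this list. Their part in it was not tested.

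Globin genes differed by a like factor in each copy. Hbb-bs had 991.11 TPM in replicate 1 and 2897.28 TPM in replicate 2, Hbb-bt 101.43 and 370.15 TPM, Hba-a2 895.88 and 2456.04 TPM and Hba-a1 395.1 and 1063.26 TPM. The folds on the TPM + 1 scale ran between 2.69 and 3.62. Hba-a1 and Hba-a2 are near-identical, so only their sum is certain. Alas2, the red cell enzyme of haem synthesis, had 7.37 and 17.32 TPM. The 13 genes of blood vessel endothelium had a median log2 difference of 0.12, with 9 higher in replicate 1 and 4 in replicate 2. The part of vessels in the globin difference was not tested.

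Toward replicate 1 fewer genes were past 2-fold, and 2 of the 83 were in the retinal, synaptic, globin and muscle lists. Toward replicate 2 these lists held 61 of the 411 past 2-fold and 42 of the 126 past 4-fold. Without them 350 genes were still past 2-fold toward replicate 2. The lists hold chosen markers and not every gene of these tissues, so the tissue behind those 350 genes was not tested. Several of these lists were drawn up after the values were seen, so the counts are no test. Of 15 skeletal muscle genes 2 met the rule, and Mylpf, a fast myosin light chain, had 23.6 TPM in replicate 1 and 1.63 TPM in replicate 2. The other, Tnni2, differed less, by 1.31 on the log2(TPM + 1) scale. It held 14.17% of the list sum in replicate 1 and 77.94% in replicate 2. Mb, Myl1, Tnnc2, Tnnt3 and Ckm had 28.33, 27.41, 24.04, 16.31 and 15.03 TPM in replicate 1 and were listed at 0 in replicate 2. Acta1, skeletal actin, had 19.2 and 0.18 TPM. Cardiac and slow myosin, Myh7, stood at 0.53 and 0.21 TPM.

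Small leucine-rich proteoglycans of the stroma were higher in replicate 1 in 10 of 10 cases, with a median log2 difference of 0.72 and 1 gene past 2-fold, beside the 0.613% of all genes. This list, too, was drawn up after the values were seen, so its counts are no test. Fmod, fibromodulin, had 136.37 TPM in replicate 1 and 62.45 TPM in replicate 2. Prelp had 41.23 and 21.84 TPM and Ogn 139.76 and 88.46 TPM, while the cornea-enriched Kera had a difference of 0.27. Collagen genes were mixed, 14 of 35 expressed being higher in replicate 1 and 21 in replicate 2. Differences were 0.03 for Col1a2, 0.22 for Col1a1 and -0.03 for Col5a2. For Col14a1, Col16a1 and Col5a1 they were 0.87, 0.64 and -0.34. Apod, apolipoprotein D, at 502.7 and 219.11 TPM, and Penk, the enkephalin precursor, at 174.6 and 82.7 TPM, were the largest differences toward replicate 1 among genes with a mean of at least 100 TPM. Myoc, myocilin of the trabecular meshwork, had 81.82 and 29.88 TPM and Chil1, made there too, 68.98 and 23.31 TPM. Tnmd and Chad, genes of tendon and cartilage, had 43.86 and 19.53 TPM and 12.25 and 2.82 TPM. The skeletal muscle genes were higher in the same library, and their part in these differences was not tested.

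**Figure D5:**
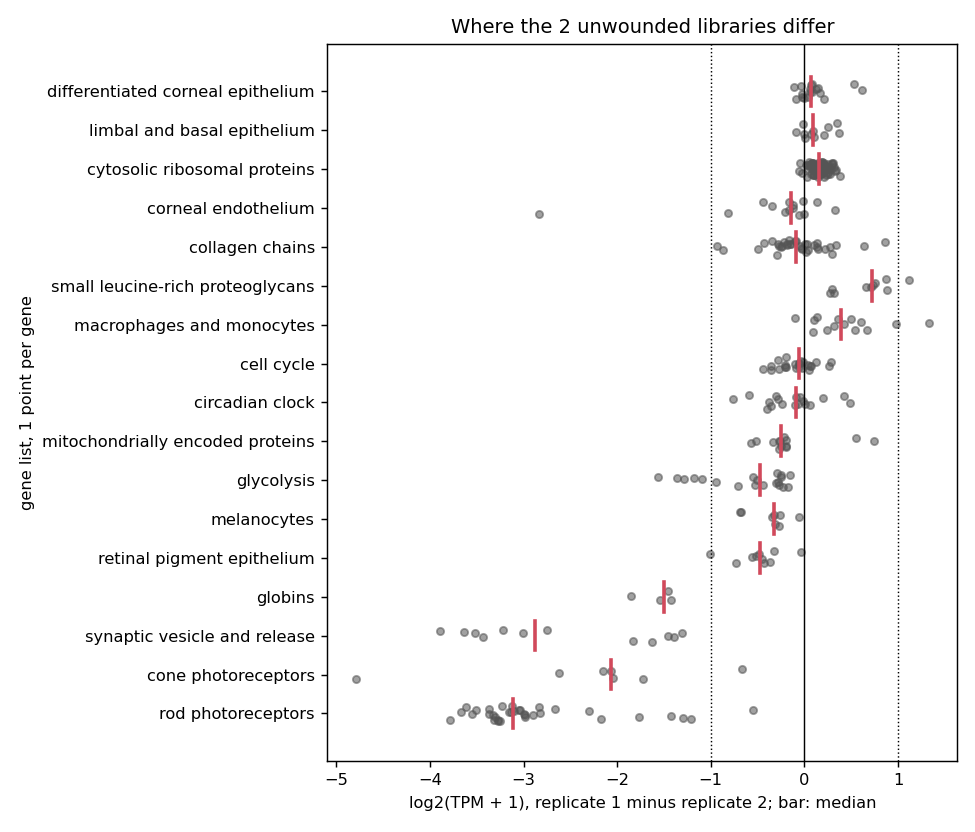
Difference in log2(TPM + 1), replicate 1 minus replicate 2, for each gene expressed in both unwounded libraries, in 17 gene lists, with the median of each list as a bar and dotted lines at 2-fold. Epithelial and ribosomal lists cluster near 0, proteoglycan genes lie at a median of 0.72 and rod genes at -3.11.

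Some epithelial and immune genes were also higher in replicate 1. Spink7 and Spink5, inhibitors of serine proteases, had 43.95 TPM in replicate 1 and 14.17 TPM in replicate 2, and 10.99 and 2.98 TPM. Itgb6, an integrin subunit of epithelia, had 14.16 and 3.66 TPM, and Mmp3, a stromelysin, 97.68 and 30.2 TPM. Retnla, a gene of alternatively activated macrophages, had 12.4 and 3.41 TPM. Of the 14 expressed macrophage markers 13 were higher in replicate 1, with a median log2 difference of 0.39. The 1 past 2-fold, beside 0.613% of all genes in that direction, was Adgre1, at 5.81 and 1.71 TPM. Complement and innate defence genes were higher in replicate 1 in 17 of 19 cases, with a median of 0.44. Over all genes the median was -0.07. Of the 19 genes 3 were past 2-fold toward replicate 1, beside 0.613% of all genes. Serping1, the inhibitor of C1, was past 2-fold, at 136.27 and 66.99 TPM.

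Dosage partners of the Y-linked genes on the X chromosome were measured in both libraries. Eif2s3x had 105.5 TPM in replicate 1 and 72.71 TPM in replicate 2, against 0 and 54.94 TPM of Eif2s3y (ENSMUSG00000069049, chromosome Y, 1010543 to 1028847, plus strand). Ddx3x had 179.68 and 165.87 TPM, against 0 and 26.01 TPM of Ddx3y. Kdm5c had 23.56 and 19.71 TPM and Kdm6a 23.21 and 16.86 TPM. All 4 X-linked partners, which are known to escape X inactivation, were higher in replicate 1, the library with Xist.

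Noncoding RNA gave a further view of what the libraries held. The nuclear RNA Malat1 had 119.7 TPM in replicate 1 and 218.05 TPM in replicate 2, and Neat1 153.72 and 168.97 TPM. The mitochondrial ribosomal RNAs mt-Rnr1 and mt-Rnr2 had 372.94 and 456.12 TPM and 267.74 and 398.92 TPM. Rn7sk, a small nuclear RNA made by RNA polymerase III, had 32.49 and 84.7 TPM. Of the 11 expressed RNAs in that list 9 were higher in replicate 2. Whether libraries were made by poly(A) selection or by removal of ribosomal RNA is not given in the sources used here.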

How the data were processed

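Values are TPM per Ensembl gene, as the authors deposited them. Per the submitters' processing notes the tools were STAR, RSEM and DESeq2 and the build mm10, without versions or roles. Which annotation the authors used is not stated. TPM has the same total in every library, so depth is unknown and no counting interval can be given. Group and replicate come from the sample titles. Symbols and coordinates were taken from GENCODE M21 on GRCm38, for 54409 of 54446 rows, and where a symbol had 2 rows the higher was used.

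From these values, percentages of the summed TPM, differences of log2(TPM + 1) and counts past 2-fold were computed, with median-of-ratios scaling (each library divided by its median ratio to the mean of both on a log scale) as an alternative, with pandas 2.3.3 in Python 3.11.15, and the counting was tested on simulated data. Genes were named by rule: the 30 highest means, up to 4 members of each layer or function list and 2 of each list of another tissue, the 12 largest differences per direction, 6 per direction at a mean of at least 100 TPM, the 5 highest in 1 library only, and 2 on each side of the threshold. All other genes named, among them further list members, Crx and the X-linked partners, were chosen after their values were seen. The members and the 40 lists, of 582 genes, were chosen with earlier results of these data known, and 16 more lists after the values were seen. These 16 cover rods, cones, inner retinal neurons, vesicle release, Müller glia, retinal pigment epithelium, melanocytes, globins and stromal proteoglycans. They also cover the chromosome 1 copies, junctions, S100 proteins, sensory nerve targets, ribosomal proteins, keratins and collagens. Counts in these lists describe the libraries and are no test. Identity of pseudogenes was computed with blastn. Some genes that the rule names are not reported here.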

Additional observations from a re-analysis of the deposited data

How the results depend on the processing

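The number of expressed genes, 13533, stayed within 1.5 times under each alternative tried: 14813 at 0.5 TPM, 10078 at 5 TPM, 12703 for protein-coding genes, and between 14013 and 14629 with a single library. The 10 most abundant genes held 15.53%, 15.28% to 15.82% with a single library, 13.4% without mitochondrially encoded genes, and 12.91% without these and their chromosome 1 copies, an alternative chosen after seeing the data. The 494 genes past 2-fold became 713 with a pseudocount of 0.1, 461 with median-of-ratios scaling, 1189 with no filter on low values, 165 at 5 TPM in both libraries and 129 at 4-fold. Among alternatives chosen after seeing the data, 756 were past 2-fold as a plain ratio, and 431 without the retinal, synaptic, globin and muscle lists. The share higher in replicate 1 was 16.8%, and between 2.33% and 23% under these alternatives, the lowest being that at 4-fold. The median difference, -0.069, was 0.0283 with scaling, -0.0529 at 5 TPM in both libraries and 0 with no filter. Of the 107 genes named for their level, their difference or the threshold, none changed sign with a pseudocount of 0.1 and 5 did with scaling (Gm28661, Emp1, Ptgds, Mgarp and Tkt), all with differences of 0.0949 or less. The 40 past 2-fold kept their direction under both. With scaling, genes of glycolysis and lactate transport past 2-fold numbered 4, not 5. Also with scaling, the medians of the cell cycle, clock, heat shock, collagen, cytokine and crystallin enzyme lists turned from below 0 to above it. So did those of the water and ion transport and sensory nerve lists, and the single lymphocyte gene. No paired analysis was possible because a single group was used. What limits every value is that 2 libraries of unknown depth differ at once in sex-linked, retinal, blood and muscle RNA.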
